A study of Callithrix jacchus with 3 samples.

Results

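RNA levels of integrin and focal adhesion genes were described in 3 RNA-seq libraries of common marmoset (Callithrix jacchus) cells. The genes were chosen by symbol from a list of 48 genes for integrin subunits, focal adhesion proteins and matrix proteins. Of these, 44 had a matched Ensembl gene ID among the 30811 genes of the count files, and ITGAE, ITGAM, SPARC and DAG1 had no matched ID and were dropped. All 44 had counts in each library, and none was removed by a filter. The title of the study describes attempts to bring marmoset embryonic stem cells to become extended pluripotent stem cells, a state described in other species as able to form embryonic and extraembryonic tissue. The 3 libraries form 1 group, whose only stated cell type is extended pluripotent stem cell, and the design text calls the cells EPSC-like. Their titles share a prefix, and no label gives a medium, a passage, a coating of the dish or a separate culture for each library. No parental or control cells were analysed here, so a p-value for a level reflects no more than how these libraries vary. That variation may be technical. A p-value between a pair of libraries reflects counting error alone.

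Integrins are receptors that join the matrix outside a cell to actin inside it. Each works as a dimer of 1 alpha and 1 beta chain, and the pairing sets the ligand: collagen, laminin, proteins with an RGD motif such as fibronectin and vitronectin, or counter-receptors on other cells. Inside the cell, talins and kindlins bind the beta tail, adaptors and kinases assemble on them, and vinculin, filamins and alpha-actinins connect the site to actin. Pluripotent stem cells in culture are known to depend on such contacts with laminin, vitronectin or fibronectin.

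Total counts were 52327369, 55224475 and 40593244 in replicates 1, 2 and 3. Levels are given as CPM, counts per 1000000 counts of a library after scaling between libraries, and where 3 values follow a gene they are those of replicates 1, 2 and 3 in this order. A count of 0 allowed at most 0.0573, 0.0546 and 0.0736 CPM (3 counts, counting error only). All 5 matched pluripotency markers, POU5F1, NANOG, SOX2, LIN28A and DNMT3B, were above 1 CPM, with POU5F1 at 974, 972 and 1185 CPM. Replicates 1 and 2 were close to each other, and replicate 3 stood apart: log2 ratios of genes averaging 50 counts or more had an SD of 0.161 for replicates 1 and 2, but 0.557 for 1 and 3 and 0.561 for 2 and 3. Counts of genes and of integrin pairs called against 1 CPM are therefore given with and without replicate 3. Mean levels and their SDs are over all 3 libraries. CPM does not correct for gene length, and no transcript lengths were used here, so levels of different genes are not ranked.

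Of the 44 genes, 38 were above 1 CPM, 1 was below that level and 5 could not be told from it (a test of each level against 1 CPM by edgeR's quasi-likelihood method, adjusted over 23432 genes). Above 1 CPM were 86.4% of the 44, against 78.3% of all tested genes that have a symbol and 56% of all tested genes. Below 1 CPM were 16.1% of genes with a symbol and 37.8% of all tested genes. The excess over other named genes is small and was not tested. All 22 genes for intracellular and matrix proteins were above the level, and the 6 genes that were not were all integrin subunits. Without replicate 3, 38 genes were above the level and 2 below it.

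Alpha subunits that bind laminin were all above 1 CPM. ITGA6 (ENSCJAG00000007399) encodes alpha6, a laminin receptor chain that pairs with beta1 or beta4 and is much used as a stem cell surface marker. It stood at 205, 206 and 96.6 CPM. Replicate 3 was low, and the mean was 169 ± 62.9 CPM (SD, n = 3). The gene count does not separate the splice forms of its cytoplasmic tail. ITGA3, the alpha chain of another laminin receptor, stood at 11.2, 10.8 and 6.87 CPM, again lowest in replicate 3. ITGA7, the laminin receptor chain best known from muscle, stood at 24.2, 23.1 and 31.9 CPM and was highest in replicate 3.

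Of the RGD receptor chains, ITGA5, ITGAV and ITGA2B were above 1 CPM and ITGA8 was not. ITGA5, whose product pairs with beta1 as the classical fibronectin receptor, stood at 87.6, 79.8 and 59.0 CPM, with a mean of 75.5 ± 14.8 CPM (SD, n = 3). ITGAV, the shared alpha chain of the vitronectin receptors, stood at 114, 118 and 67.8 CPM, with a mean of 99.7 ± 27.7 CPM (SD, n = 3). Both were lowest in replicate 3. ITGA2B, the alpha chain of the platelet fibrinogen receptor, stood at 11.5, 11.1 and 12.6 CPM, and its libraries lay close together. ITGA8, a receptor chain for nephronectin, was not distinguished from 1 CPM at 1.24, 1.04 and 0.368 CPM (adjusted p = 0.642, edgeR). Its level on the log2 scale changed sign from −0.17 with 3 libraries to 0.18 without replicate 3.

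Of the 4 collagen receptor chains, only ITGA1 and ITGA11 were above 1 CPM. ITGA11 stood at 7.11, 7.04 and 8.19 CPM and ITGA1 at 5.66, 3.64 and 2.11 CPM. ITGA1 differed between all 3 pairs of libraries and ITGA11 between none by the exact binomial test used for library pairs. ITGA2 was not distinguished from 1 CPM, and stood at 1.47, 0.309 and 0.270 CPM, with replicate 1 far above the others. Without replicate 1 it was below the level (log2 level −1.78, adjusted p = 0.00995, edgeR), in a fit on 2 libraries that takes a gene's spread from the trend. ITGA10, a collagen receptor chain of cartilage, was not distinguished either, at 0.516, 0.946 and 0.613 CPM.

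The remaining alpha chains are best known from leukocytes and from cells that bind VCAM1 or tenascin. ITGA9 was above 1 CPM at 6.21, 6.02 and 1.23 CPM, with replicate 3 far below the others. ITGA4 was above it at 1.99, 2.04 and 1.03 CPM (adjusted p = 0.0124, edgeR). That call was lost without replicate 1 and without replicate 2 (adjusted p = 0.0567 and 0.0634), and in the first of 2 forms of DESeq2's Wald test (adjusted p = 0.489). ITGAL, the alpha chain of the lymphocyte receptor LFA-1, was not distinguished from 1 CPM at 1.19, 0.746 and 0.736 CPM.

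**Figure D1:**
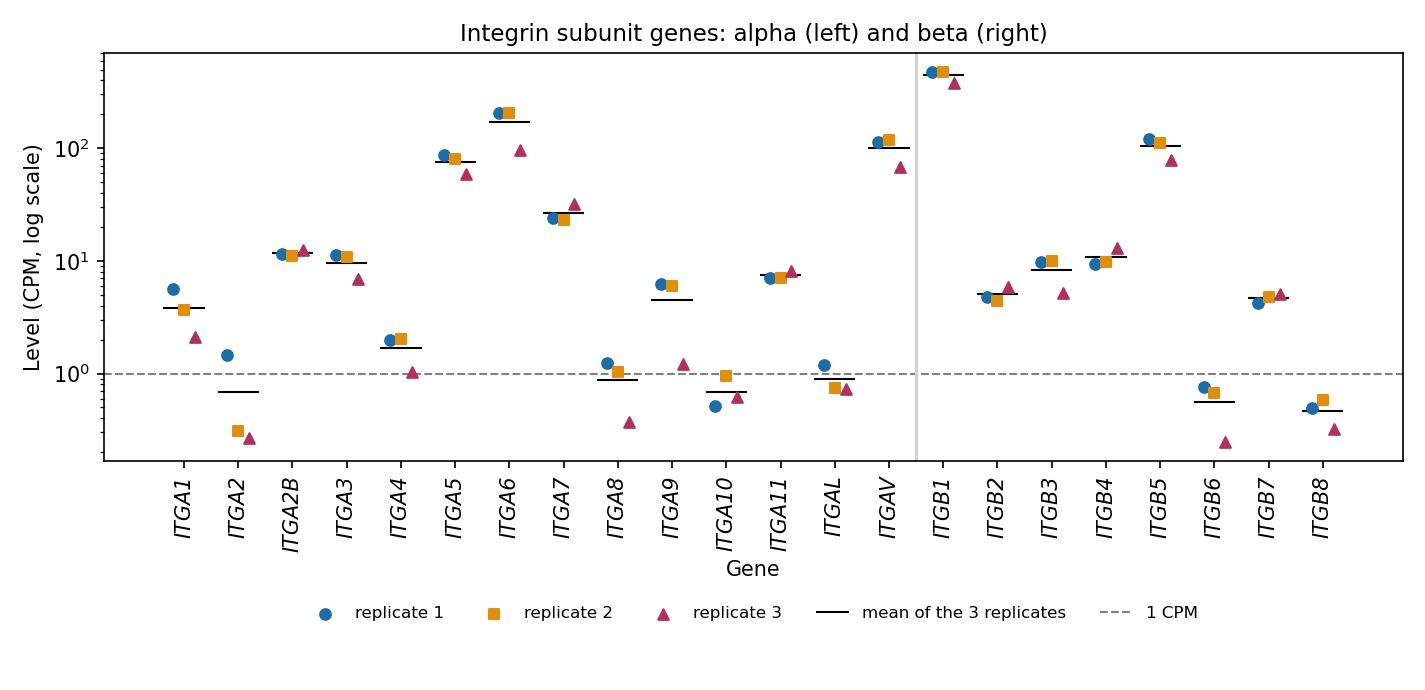
Level of each integrin subunit gene in CPM (log axis) in each replicate (symbols), with the mean of the 3 replicates (bars) and the level of 1 CPM (dashed line). ITGB1 and ITGA6 stood far above 1 CPM in every replicate, ITGB8 lay below the line in each of them, and ITGA9 lay at about the same height in replicates 1 and 2 (6.21 and 6.02 CPM) and near the line in replicate 3 (1.23 CPM).

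Of the 8 beta subunits, 6 (75%) were above 1 CPM, against 78.3% of all tested genes that have a symbol. ITGB1 (ENSCJAG00000013701), the partner of 12 of the alpha chains considered here, stood at 474, 479.7 and 383 CPM, with a mean of 445 ± 54.3 CPM (SD, n = 3). ITGB5, which pairs with the alphaV chain as a vitronectin receptor, stood at 121, 112 and 78.3 CPM. Replicate 3 was the lowest for both, by a smaller margin for ITGB1. ITGB3, the partner of alphaV and alphaIIb, stood at 9.73, 9.97 and 5.20 CPM. ITGB4, the beta chain of hemidesmosomes, stood at 9.44, 9.82 and 12.9 CPM and was highest in replicate 3.

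The leukocyte beta chains were above 1 CPM as well, ITGB2 at 4.82, 4.44 and 5.91 CPM and ITGB7 at 4.21, 4.78 and 5.10 CPM. ITGB2 was higher in replicate 3 than in replicate 2 (adjusted p = 0.00493, exact conditional binomial), and ITGB7 passed the test in none of the 3 pairs of libraries. The pan-leukocyte gene PTPRC stood at 0.0382, 0.0727 and 0 CPM, the T cell gene CD3E at 0.191, 0.309 and 0.147 CPM, and the platelet gene GP9 had 0, 1 and 0 counts, so these 3 markers were at or near 0. Of the 5 matched markers of leukocytes and platelets, 2 were above 1 CPM, ITGAX among them, and these 3 were below it. ITGB6 and ITGB8 encode partners of alphaV that are known to activate latent TGF-beta. ITGB8 was the 1 gene of the 44 that was below 1 CPM, at 0.497, 0.582 and 0.319 CPM (adjusted p = 0.0114, edgeR). That call was lost in the first form of DESeq2's Wald test (adjusted p = 0.569). ITGB6, at 0.765, 0.673 and 0.245 CPM, was not distinguished from 1 CPM with 3 libraries (adjusted p = 0.0643, edgeR) and was below it without replicate 1 and without replicate 3 (adjusted p = 0.0411 and 0.0455).

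These calls set which integrin dimers the RNA levels allow. Of the matched integrin subunits, 72.7% were above 1 CPM, against 78.3% of all tested genes that have a symbol. Of 22 known alpha and beta pairs among the listed genes, 14 had both subunits above 1 CPM. These pairs are not independent, since 9 of the 14 share ITGB1, and no share for other pairs of genes was computed. In 5, a subunit was not distinguished from 1 CPM, in 1 a subunit was below it, and 2 hold ITGAE or ITGAM and could not be judged. The level of RNA allows a pair and does not show that the dimer is made or is on the surface.

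All 4 laminin-binding pairs were allowed: alpha3beta1, alpha6beta1, alpha7beta1 and alpha6beta4. Of 8 RGD-binding pairs, 5 were allowed, namely alpha5beta1, alphaVbeta1, alphaVbeta3, alphaVbeta5 and alphaIIbbeta3. For alphaVbeta8 the beta chain was below 1 CPM, and for alphaVbeta6 and alpha8beta1 a chain was not distinguished from it. Of 4 collagen-binding pairs, alpha1beta1 and alpha11beta1 were allowed, and alpha2beta1 and alpha10beta1 had an alpha chain that was not distinguished. Of the 6 pairs of the leukocyte and VCAM1 type, alpha4beta1, alpha9beta1 and alpha4beta7 were allowed. The pair alphaLbeta2 was left undecided, since ITGAL was not distinguished from 1 CPM.

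The set of allowed pairs depends on the level asked for. At 5 CPM, 10 pairs had both chains above the level, and those with ITGA1, ITGA4 or ITGA9 were no longer among them. At 10 CPM, 5 pairs were left: alpha6beta1, alpha7beta1, alpha5beta1, alphaVbeta1 and alphaVbeta5. At 0.5 CPM there were 16, with alpha8beta1 and alphaLbeta2 added. The pairs with ITGA4 were lost without replicate 1 or replicate 2, which left 12 of 14 in each case. Without replicate 3 there were 14.

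**Figure D2:**
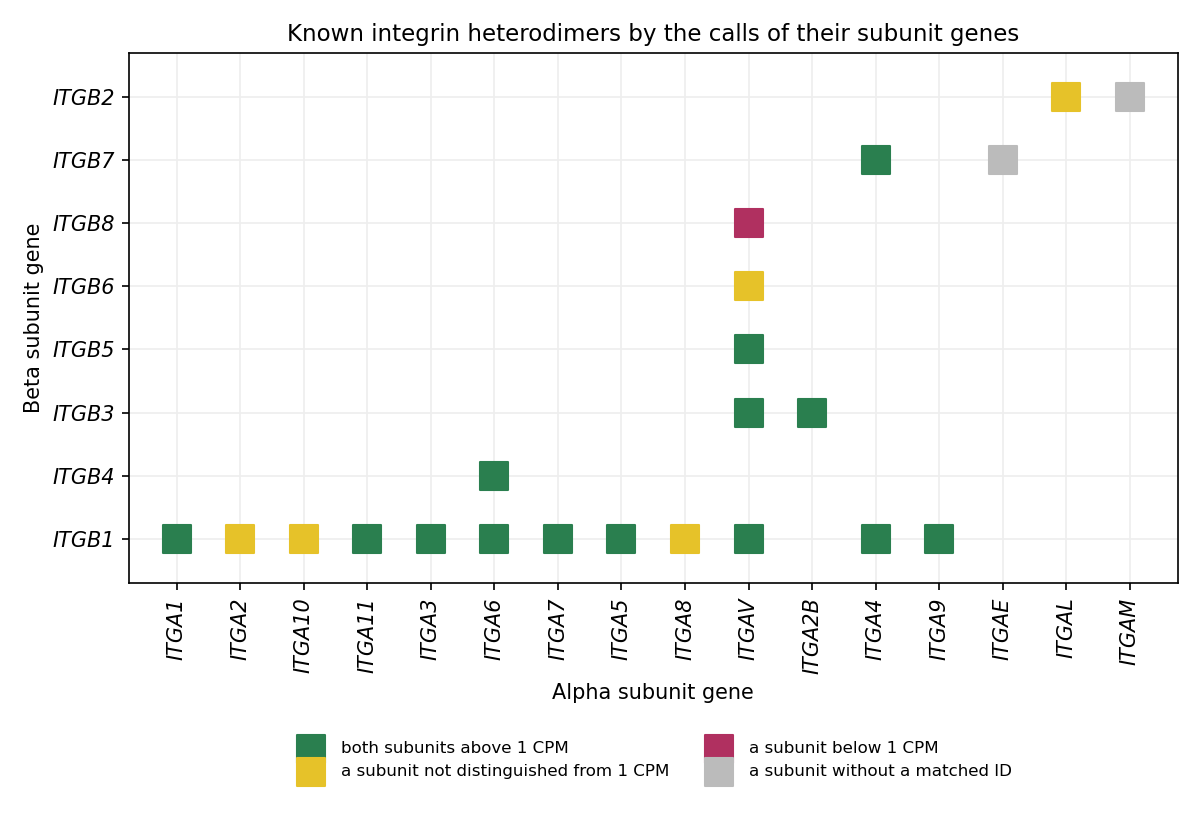
Known integrin dimers, with alpha subunit genes on the horizontal axis and beta subunit genes on the vertical axis; the colour of a square gives the calls of the 2 genes against 1 CPM. The row of ITGB1 holds 12 pairs, of which 9 had both subunits above 1 CPM.

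Inside the cell, all 10 genes for adaptors and kinases were above 1 CPM. PTK2, which encodes focal adhesion kinase, stood at 178, 169.9 and 145 CPM. TLN1 and TLN2 encode talins, which bind the beta tail and switch integrins on. TLN1 stood at 159.9, 161 and 115 CPM and TLN2 at 144, 145 and 81.3 CPM. All 3 genes were lowest in replicate 3.

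The kindlins FERMT1 and FERMT2 work beside talin on the beta tail. FERMT2 stood at 92.7, 89.98 and 81.5 CPM and FERMT1 at 19.1, 18.8 and 13.1 CPM. FERMT3, the kindlin of blood cells, is outside the 44 genes and stood at 5.66, 6.16 and 6.70 CPM. ILK, LIMS1 and PARVA encode the scaffold of integrin-linked kinase, PINCH and parvin. ILK stood at 89.7, 82.4 and 87.2 CPM, with libraries close together. LIMS1 stood at 41.0, 44.7 and 24.7 CPM and PARVA at 31.3, 33.5 and 21.4 CPM, and both were lowest in replicate 3. LIMS1 has near-identical copies in the human genome, so its level is uncertain if the same holds in the marmoset, because how reads shared by copies were counted is not stated.

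PXN and BCAR1 encode docking proteins that work with focal adhesion kinase, and neither was lower in replicate 3 by the pair test. PXN, which encodes paxillin, stood at 64.6, 63.1 and 62.7 CPM, the narrowest range of the adaptors. BCAR1, which encodes the scaffold p130Cas, stood at 55.0, 56.1 and 74.1 CPM, highest in replicate 3.

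All 7 genes that link adhesions to actin were above 1 CPM. VCL, which encodes vinculin, stood at 360.0, 365 and 247 CPM. FLNA, which encodes the actin crosslinker filamin A, stood at 351, 361 and 152 CPM, and ACTN4, for alpha-actinin 4, at 270.0, 269.9 and 245 CPM. The last of these varied little, whereas FLNA in replicate 3 was well under its level in the others. ACTN1 stood at 176, 175 and 136 CPM. ZYX, which encodes zyxin, a protein of mature adhesions under tension, stood at 142, 143 and 150.1 CPM. Of the tensins, which bridge beta tails and actin, TNS3 stood at 47.5, 44.6 and 29.5 CPM and TNS1 at 2.54, 2.35 and 1.37 CPM. TNS1 lost its call in the first form of DESeq2's Wald test (adjusted p = 0.283).

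All 5 matched genes for matrix proteins were above 1 CPM. AGRN, which encodes the basement membrane proteoglycan agrin, stood at 639, 661 and 482 CPM. FN1 (ENSCJAG00000011714) encodes fibronectin, the ligand of alpha5beta1, and stood at 259, 242 and 73.6 CPM. Replicate 3 held far less of it than the others, and the mean was 192 ± 103 CPM (SD, n = 3). VTN, which encodes vitronectin, the ligand of alphaVbeta5, stood at 121, 120.1 and 123 CPM, and its 3 values were nearly equal. FBLN1, for fibulin 1, stood at 141, 138 and 132 CPM. TNC, for tenascin C, a ligand of alpha9beta1, stood at 7.26, 6.24 and 3.61 CPM.

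**Figure D3:**
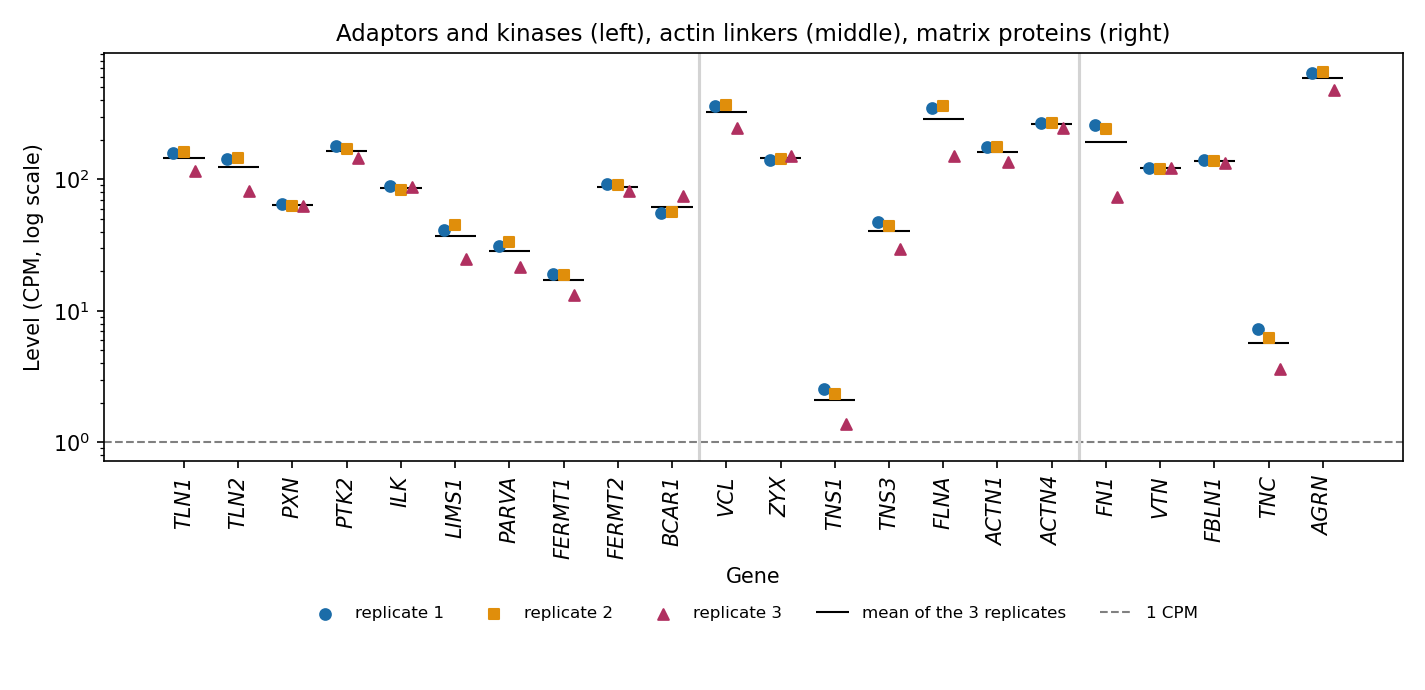
Level in CPM (log axis) of the 22 genes for adaptors and kinases, actin linkers and matrix proteins in each replicate (symbols), with the mean of the 3 replicates (bars) and the level of 1 CPM (dashed line). All points lie above 1 CPM; replicate 3 was well below the others for FN1, FLNA and TLN2, and all 3 replicates nearly coincided for VTN and PXN.

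Replicate 3 held lower levels of most of these genes. Between replicates 1 and 3, 30 of the 44 genes were lower in replicate 3, 4 were higher and 10 did not pass the test (exact conditional binomial test, adjusted over all tested genes). This test compares those libraries, not conditions, and allows for counting error only. Lower in replicate 3 were 68.2% of the 44 genes, against 37.6% of genes with a symbol and 39.8% of genes that averaged 50 counts or more. Higher were 9.09% of them, against 23.9% and 30.7%. The median log2 ratio of replicate 3 to replicate 1 was −0.55, and −0.051 over the genes averaging 50 counts or more.

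With a difference of at least 1.5-fold asked for as well, 18 of the 44 genes were lower in replicate 3, and 0 were higher. Those 18 are 40.9% of the 44, against 14.5% of genes with a symbol and 14.4% of those averaging 50 counts or more. Higher by that size were 4.52% and 5.39% of these backgrounds. Of the 18, 8 were alpha subunits, 3 beta subunits, 2 adaptors, 3 actin linkers and 2 matrix genes. Against replicate 2, 29 genes were lower in replicate 3 and 6 higher (37.9% and 24% of genes with a symbol), 17 of them lower by at least 1.5-fold and 0 higher (14.7% and 4.79% of genes with a symbol). Between replicates 1 and 2, which do not involve replicate 3, 9 of the 44 genes differed, or 7 lower and 2 higher in replicate 2 (3.94% and 5.05% of genes with a symbol). Only ITGA1 and ITGA2 of these differed by at least 1.5-fold, both lower in replicate 2, as were 0.575% of genes with a symbol.

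Fold differences were largest in low genes and in FN1. ITGA2 was 5.46-fold (2.89 to 11.4) lower in replicate 3 than in replicate 1, but in replicate 2 it was as low as in replicate 3, so replicate 1 was the high library. ITGA9 was 5.07-fold (3.75 to 6.97) lower in replicate 3 and FN1 3.52-fold (3.38 to 3.66) lower. ITGA8 and ITGB6, both low throughout, were 3.38-fold (1.91 to 6.38) and 3.12-fold (1.53 to 6.99) lower. The intervals are 95% intervals of counting error only, and reads without molecular identifiers may vary more.

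Among the genes of higher counts, FLNA was 2.31-fold (2.25 to 2.38) lower in replicate 3, ITGA6 2.13-fold (2.05 to 2.21) and TLN2 1.77-fold (1.70 to 1.85). ITGAV was 1.68-fold (1.60 to 1.76) lower, LIMS1 1.66-fold (1.54 to 1.79), TNS3 1.61-fold (1.5 to 1.73) and ITGB5 1.55-fold (1.48 to 1.62). ITGA5 at 1.48-fold (1.41 to 1.56), VCL at 1.46-fold (1.42 to 1.49) and PARVA at 1.47-fold (1.35 to 1.59) lay just under 1.5-fold. ITGB1 itself was 1.24-fold (1.21 to 1.26) lower, less than 9 of its 12 alpha partners.

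In the other direction, 4 genes were higher in replicate 3 than in replicate 1. BCAR1 was 1.35-fold (1.28 to 1.42) higher, ITGB4 1.37-fold (1.21 to 1.55), ITGA7 1.32-fold (1.22 to 1.43) and ZYX 1.06-fold (1.02 to 1.10). PXN, ILK and VTN did not pass the test between replicates 1 and 3 (adjusted p = 0.422, 0.338 and 0.733, exact conditional binomial). Their ratios of replicate 3 to replicate 1 had intervals of 0.922 to 1.02, 0.930 to 1.02 and 0.975 to 1.05. With no scaling factors or with those of DESeq2, 30 genes were lower and 5 higher in each case. The factors used here were 0.9998, 0.9957 and 1.005 for replicates 1, 2 and 3. Leaving them out therefore changes little, and this agreement is a weak check of the scaling.

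**Figure D4:**
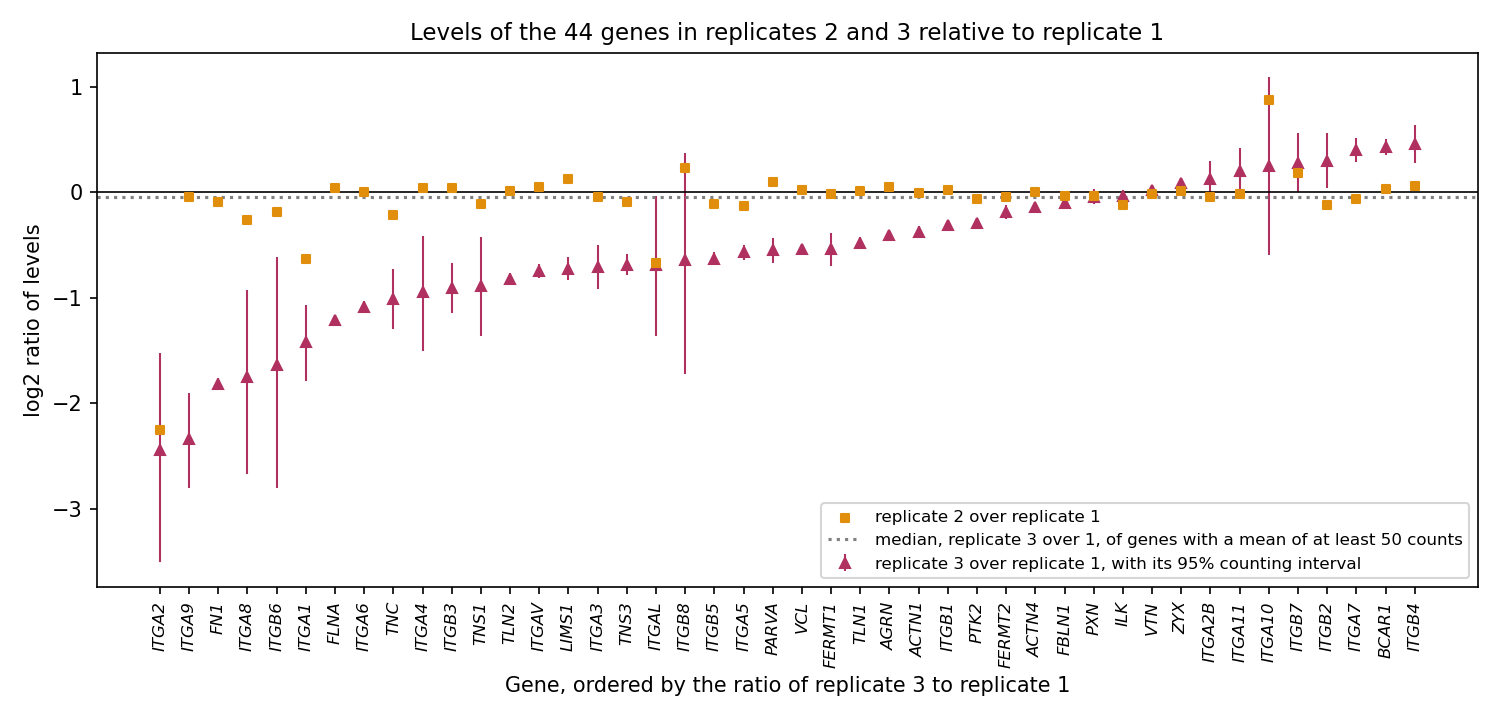
log2 ratio of each gene's level in replicate 3 (triangles, with 95% counting intervals) and replicate 2 (squares) to its level in replicate 1, ordered by the first; the dotted line is the median (−0.051) over genes averaging 50 counts or more. Most triangles lie below the dotted line, whereas most squares lie near 0, apart from ITGA2, ITGA1 and a few low genes.

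Because the alpha chains did not shift by equal amounts, the ratio of alpha to beta counts within a pair differed between libraries. Gene length cancels when such a ratio is compared between libraries, so this comparison needs no lengths. Of the 14 allowed pairs, 10 had a smaller alpha-to-beta ratio in replicate 3 than in replicate 1, 3 had a larger one and 1 had an interval that held equality (95% interval of the log ratio from counts, counting error only). The pairs are not independent, since 9 of the 14 share ITGB1 and some share an alpha chain. No share for other pairs of genes was computed. The ITGA6 to ITGB1 count ratio was 0.434, 0.429 and 0.252 in replicates 1, 2 and 3, a shift of 1.72-fold (1.65 to 1.79) between replicates 1 and 3. That of ITGA7 to ITGB1 moved the other way, at 0.0511, 0.0482 and 0.0834. Relative to ITGB1, replicate 3 thus held less ITGA6 and more ITGA7 RNA than the other libraries.

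For the fibronectin receptor, the ITGA5 to ITGB1 ratio was 0.185, 0.166 and 0.154, a shift of 1.20-fold (1.14 to 1.27). The ITGAV to ITGB5 ratio was 0.939, 1.05 and 0.866, a shift of 1.08-fold (1.02 to 1.15), and that of ITGAV to ITGB3 had an interval that held equality, with a shift of 0.897-fold (0.760 to 1.06). Among the 14 allowed pairs, the largest shift was that of ITGA9 to ITGB1, at 4.09-fold (3.04 to 5.52). ITGA2B to ITGB3 moved the other way, from 1.18 and 1.12 in replicates 1 and 2 to 2.42 in replicate 3. ITGA4 to ITGB7 shifted by 2.34-fold (1.56 to 3.51).

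**Figure D5:**
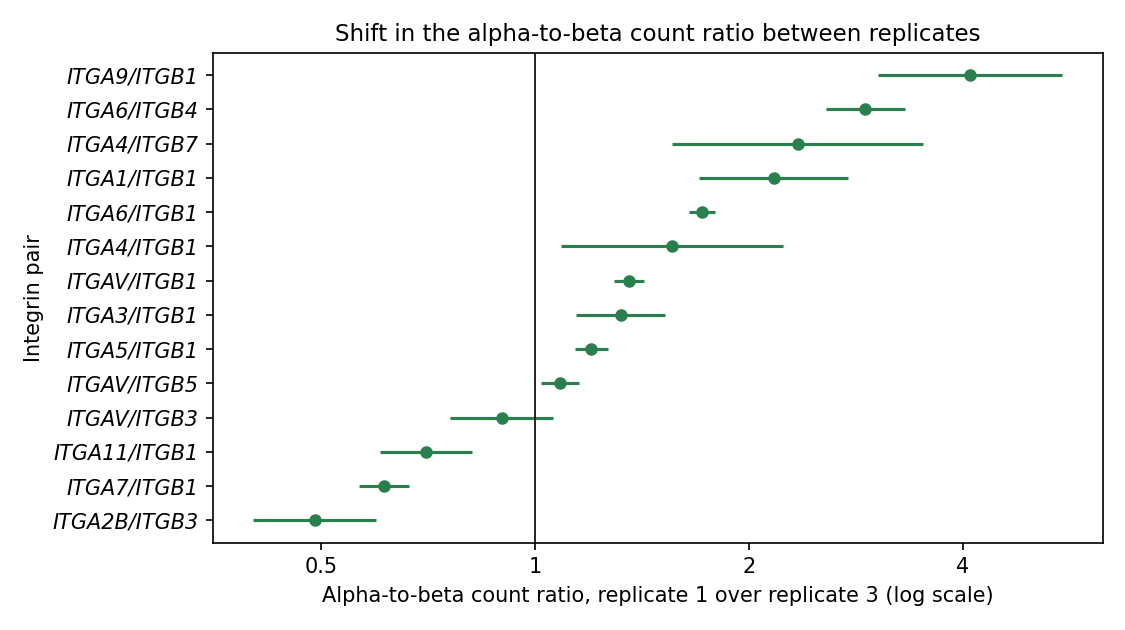
For each pair with both subunits above 1 CPM, the alpha-to-beta count ratio in replicate 1 over that in replicate 3 (log axis), with 95% counting intervals. ITGA9/ITGB1 at 4.09 and ITGA6/ITGB4 at 2.92 lie farthest to the right, ITGA2B/ITGB3 at 0.490 farthest to the left, and the interval of ITGAV/ITGB3 crosses 1.

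Other genes of the adhesion site, from a list of 49 of which 44 were matched, were mostly above 1 CPM. Above it were 41, below it was 1, and 2, TNS4 and LPXN, could not be told from it. Those 41 are 93.2% of the 44, against 78.3% of genes with a symbol and 95.8% of genes averaging 50 counts or more. ITGAX stood at 1259, 1215 and 1660.2 CPM, and ENAH, an actin regulator of the Ena/VASP family, at 654, 673 and 487 CPM. PARVG, the parvin of blood cells, was below the level at 0.115, 0.0364 and 0.270 CPM. Between replicates 1 and 3, 18 of these 44 genes were lower in replicate 3 and 10 higher, with a median log2 ratio of −0.092. These shares, 40.9% and 22.7%, lay near those of genes with a symbol, 37.6% and 23.9%. Lower by at least 1.5-fold were 6, or 13.6% against 14.5% of genes with a symbol, among them LPP at 2.87-fold (2.54 to 3.25), FLNC at 2.18-fold (1.99 to 2.39) and DOCK1 at 2.03-fold (1.88 to 2.19). LIMS2 and FBLIM1 were higher by that size, LIMS2 at 2.10-fold (1.78 to 2.49) and FBLIM1 at 1.51-fold (1.39 to 1.64). The tetraspanins CD151, CD9 and CD81, which sit beside laminin-binding integrins in the membrane, were higher in replicate 3, with CD81 at 146, 149 and 179.9 CPM.

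ITGAX is outside the 44 genes and encodes the alphaX chain of dendritic cells and macrophages, which pairs with beta2. Its mean was 1378 ± 245 CPM (SD, n = 3), with ITGB2 at 5.05 ± 0.765 CPM (SD, n = 3) and PTPRC at 0.0370 ± 0.0364 CPM (SD, n = 3). The symbol comes from a name table whose gene model may differ from the model counted, and whether the counts at this ID come from ITGAX alone was not tested.

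Genes for integrin ligands and neighbouring matrix proteins, from a list of 34 of which 31 were matched, were also mostly present, with 27 above 1 CPM. FGB was below it, VCAM1 and FGG were not distinguished and FGA had no counts. The 27 are 90% of the 30 genes with counts, against 78.3% of genes with a symbol and 95.8% of genes averaging 50 counts or more. Laminin chains for the laminin receptors were present, with LAMC1 at 421, 415 and 223 CPM, LAMA1 at 222, 210.2 and 110.0 CPM and LAMB1 at 146, 154 and 75.1 CPM. LAMA5, a further laminin chain on the list, had no matched ID and could not be judged. Between replicates 1 and 3, 25 of the 30 genes with counts were lower in replicate 3 and 0 higher, with a median log2 ratio of −0.61. Of genes with a symbol 37.6% were lower and 23.9% higher, and of genes averaging 50 counts or more 39.8% and 30.7%. LAMA1 was 2.02-fold (1.95 to 2.09) lower, LAMC1 1.89-fold (1.84 to 1.93) and HSPG2, which encodes perlecan, 1.54-fold (1.51 to 1.57). NPNT, the ligand of alpha8beta1, was low at 5.12, 4.98 and 2.55 CPM, and VCAM1, a ligand of alpha4beta1, stood at 1.59, 1.31 and 0.736 CPM. THBS1, for thrombospondin 1, stood at 103, 98.1 and 88.6 CPM.

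Markers of other cell types also differed in replicate 3, and their part in these differences was not tested. Of all tested genes with a symbol, 37.6% were lower in replicate 3 than in replicate 1. All 5 matched mesenchyme markers (COL1A1, COL1A2, COL3A1, SNAI2 and PDGFRB) were lower in replicate 3, against replicate 1. COL1A1, COL1A2 and COL3A1 were also counted among the matrix genes above. The summed level of the 5 was 670.0, 626 and 475 CPM in replicates 1, 2 and 3, most of it COL1A1 at 546, 516 and 404 CPM. Of 3 matched primitive endoderm markers, GATA6 and FOXA2 were lower in replicate 3, and the summed level was 12.1, 14.5 and 4.51 CPM. GATA6 stood at 7.32, 8.06 and 0.490 CPM, a 14.9-fold (9.53 to 24.7) drop from replicate 1 to replicate 3. FOXA2, at 0.612, 1.78 and 0.147 CPM, was not distinguished from 1 CPM, and replicate 2 held more of it than replicate 1. GATA4 stood at 4.13, 4.62 and 3.87 CPM and passed the test in none of the 3 pairs of libraries. Of 5 endothelial markers, PECAM1 was lower, the sum was 149, 155 and 99.3 CPM, and 4 of the 5 were above 1 CPM. These were PECAM1 at 116, 121 and 65.7 CPM, KDR at 28.1, 28.7 and 29.4 CPM, TEK at 2.43, 2.66 and 2.45 CPM and VWF at 2.06, 3.02 and 1.67 CPM, and CDH5 was below it at 0.0765, 0.0727 and 0.123 CPM. Of 3 matched epithelial and trophoblast markers, KRT7 was higher in replicate 3 and KRT14 and TP63 were at or near 0, with sums of 7.84, 8.38 and 9.96 CPM. The sum of the 5 leukocyte and platelet markers, 1262, 1218 and 1664 CPM, is almost wholly ITGAX. Among the pluripotency markers, LIN28A was 1.92-fold (1.89 to 1.96) lower in replicate 3 and POU5F1 1.22-fold (1.20 to 1.23) higher. In bulk RNA, fewer cells of a type and less RNA per cell cannot be told apart. Replicate 3 also had the fewest counts, and the part of depth was not tested.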

How the data were processed

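RNA was measured in 3 libraries of 1 group. Total RNA, purified by RNeasy Mini Kit, went into Illumina libraries per the labels' protocols. The tools named by the authors are STAR 2.5.3a, featureCounts 1.5.2 and Trim Galore 0.4.0, per the submitters' processing notes. Not given in the sources used here are the build, annotation, strand setting and treatment of shared reads, so overlapping genes cannot be told apart. The authors deposited raw integer counts for each Ensembl ID, without normalization. Of 30811 IDs, 12660 matched a symbol in the name table. No sequence table was at hand, and no sequence or genome position is printed.

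Counts were scaled with TMM factors (edgeR 4.0.16, limma 3.58.1, R 4.3.3). The 23432 genes with at least 1 count were set against 1 CPM in an edgeR quasi-likelihood F test, two-sided, on a model with an intercept alone, from deviances with trended dispersion (prior degrees of freedom 4.67). Library pairs were compared by an exact conditional binomial test, two-sided by doubling the smaller tail. P-values were adjusted by Benjamini-Hochberg over all tested genes, with a threshold of 0.05. DESeq2 1.42.0 served as an alternative, in a first form and in a second form chosen after the output of the first had been seen. The edgeR and exact binomial tests, not DESeq2's, were tested on simulated data. Those data held a single fixed dispersion for the edgeR test and counting error alone for the binomial test. They cannot show how the binomial test behaves where libraries vary by more than counting error. matplotlib 3.10.9 (Python 3.11.15) drew the figures. Genes, lists and pairs were chosen with earlier results of these data known. Every matched gene of the list is named. Of the other adhesion genes, the rule, which picks genes to name and does not rank their RNA per length, took the 3 of highest CPM, 1 of which is not reported here, and those below 1 CPM, and further ones were chosen after their values were seen.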

Additional observations from a re-analysis of the deposited data

How the results depend on the processing

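No paired analysis was possible because the 3 libraries form a single group. Levels per gene length were not run, as no transcript lengths were used here. The 38 genes above 1 CPM became 37 to 38 when each library in turn was left out, the 1 gene below it 1 to 3, and the 14 pairs 12 to 14. With DESeq2's size factors, DESeq2's Wald test, no scaling factors, at least 10 counts or halved counts, these counts were 38, 1 and 14. The planned DESeq2 Wald test was first run with size factors set to each library's scaled total divided by 1000000 and independent filtering. That form gave 36 genes above 1 CPM, 12 pairs and 0 genes below 1 CPM (0 also at an unadjusted p under 0.05), and ITGA4, ITGB8 and TNS1 lost their calls (adjusted p = 0.489, 0.569 and 0.283). The form with size factors near 1 and no such filtering, whose 38, 1 and 14 match edgeR's, was chosen after that output had been seen. Summing replicates 1 and 2 gave 2 genes below 1 CPM. In fits on 2 libraries the spread came from the trend, not from the gene itself.

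Other levels ask another question: 0 genes were below 0.5 CPM by edgeR or DESeq2, also at an unadjusted p under 0.05, 8 below 5 CPM and 14 below 10 CPM, where 5 pairs were left. Relative to 0.5 CPM, the log2 levels of ITGA2, ITGA8, ITGA10, ITGAL and ITGB6 were 0.46, 0.83, 0.47, 0.83 and 0.18. Relative to 5 CPM, those of ITGA1, ITGA4, ITGA9, ITGB7 and TNS1 were −0.39, −1.56, −0.15, −0.091 and −1.26. Relative to 10 CPM, those of ITGA1, ITGA3, ITGA4, ITGA9 and ITGA11 were −1.39, −0.051, −2.56, −1.15 and −0.43, and those of ITGB2, ITGB3, ITGB7, TNS1 and TNC −0.99, −0.27, −1.09, −2.26 and −0.81. ITGA8, at −0.17 relative to 1 CPM, ranged from −0.49 without replicate 1 to 0.18 without replicate 3.

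With halved counts, as if each mate of a read pair had been counted, 2 of the 44 genes differed between replicates 1 and 2 in place of 9. With 1.5-fold required as well, 2, 18 and 17 genes differed between replicates 1 and 2, 1 and 3, and 2 and 3, in place of 9, 34 and 35. Depth limits the genes under 1 CPM most, where ITGB6 had 40, 37 and 10 counts and ITGB8 26, 32 and 13.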
